A study of Mus musculus with 12 samples.

Results

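The cytosolic ribosomal protein genes were measured in 2 organs, liver and esophagus, of 6 male mice, with 1 array for each organ of a mouse. They were found by their RefSeq accessions: every probe other than a control probe was taken whose accession belonged to a mouse gene named Rpl or Rps with a digit directly after it, or to Rplp0, Rplp1, Rplp2 or Rpsa, and the Rps6k kinases were left out. That gave 121 probes for 84 of the 34335 genes and unnamed probes on the array. Of these 84 genes, 51 encode proteins of the large subunit or their paralogs and 32 those of the small subunit, and Rps19bp1 entered through its name alone, since it encodes a binding partner of Rps19 that regulates the deacetylase SIRT1. The core of 77 genes leaves out Rps19bp1 and the paralogs Rpl3l, Rpl7l1, Rpl22l1, Rpl36al, Rpl39l and Rps27l. Rpl10l and Rps4l, also paralogs, had no matched probe.

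The 3 transgenic (TG) mice were Col1a1 tetO-Nanog/+;Rosa26 rtTA/+, in which doxycycline lets the rtTA activator at Rosa26 switch on a Nanog transgene at Col1a1. The 3 control (CTR) mice were Col1a1 +/+;Rosa26 rtTA/+ and so carried the activator without the transgene. All 6 mice were on a mixed 129Sv/C57BL6 background, were about 8 months old and drank doxycycline at 0.2 mg/ml in 7.5% sucrose for 48 h, controls included. The groups of 3 arrays are liver CTR, liver TG, esophagus CTR and esophagus TG. Rosa26 is active in most cell types, so the activator is not specific to a cell type of either organ. Nanog is a pluripotency factor of the early embryo that adult organs normally lack.

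A ribosome joins a small subunit, which reads the messenger RNA, to a large subunit, which makes the peptide bond and lets the new chain out through a tunnel. Nearly every ribosomal protein is present once per ribosome, and the messenger RNAs of these proteins carry a pyrimidine run at the very start, the TOP motif, through which mTOR signalling and the LARP1 protein set their translation together. A few of them have paralogs that are made in particular tissues, such as Rpl3l in striated muscle and Rpl39l in the testis.

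The annotated start sites show a pyrimidine run in part of the family, and the paralogs and organ-dependent genes are set beside it. RefSeq promoter sequences (GRCm38.p6) were matched for 64 of the 84 genes. In 59.4% of these a run of at least 5 C or T letters that begins with C lay within 10 bases of an annotated start on the gene's strand, against 34.4% of all 27025 genes in the table and 44.9% of 69 mitochondrial ribosomal protein genes. A run of at least 8 letters was found in 37.5%, against 9.43% of all genes and 7.25% of the mitochondrial set. The lines below give 30 bases around the start, with a run that qualifies in capitals. The first 5 show long runs in genes of both subunits.
Rps6 (chr4:86857353-86857382, minus strand): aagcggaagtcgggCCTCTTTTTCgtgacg
Rps18 (chr17:33955651-33955680, minus strand): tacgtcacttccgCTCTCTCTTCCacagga
Rpl35 (chr2:39005117-39005146, minus strand): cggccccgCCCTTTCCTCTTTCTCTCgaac
Rpl38 (chr11:114668565-114668594, plus strand): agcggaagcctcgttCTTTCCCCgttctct
Rpl14 (chr9:120571502-120571531, plus strand): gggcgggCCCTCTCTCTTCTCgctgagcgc
The next lines are genes whose level differed between the organs or that form a pair of paralogs, as described further on.
Rpl31 (chr1:39367836-39367865, plus strand): cttcctcctcgCCTCCCCgtgacccggaag
Rps27 (chr3:90213634-90213663, minus strand): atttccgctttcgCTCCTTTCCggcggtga
Rps27l (chr9:66946071-66946100, plus strand): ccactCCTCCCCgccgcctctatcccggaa
Rpl36a (chrX:134585639-134585668, plus strand): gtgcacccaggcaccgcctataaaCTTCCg
Rpl36al (chr12:69184053-69184082, minus strand): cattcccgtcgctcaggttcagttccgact
Rpl10 (chrX:74270801-74270830, plus strand): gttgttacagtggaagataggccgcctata
Rpl3l (chr17:24727811-24727840, plus strand): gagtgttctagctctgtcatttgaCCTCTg
Rpl36al and Rpl10 hold no such run in this window, and Rps27l holds one of 7 letters where Rps27 has 9. The median difference between esophagus and liver in CTR mice was 0.14 (log2) over the 38 genes with a run and 0.11 over the 26 without.

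Other promoter letters were searched in the 250 bases before the start, on both strands. TCTCGCGA, a motif of housekeeping promoters, was found in 15.6% of the 64 genes and in 0.977% of all genes. GCCATNTT, the core bound by YY1, was found in 15.6% against 4.49%, and CCGGAAGT, the core bound by ETS factors such as GABPA, in 12.5% against 3.23%. TGACGTCA, the cyclic AMP response element, was found in 7.81% against 1.77%. CACGTG, the E-box read by Myc, was about as frequent as elsewhere at 7.81% against 6.86%, and TATAAA was rarer at 6.25% against 14.3%. In the 69 mitochondrial ribosomal protein genes CCGGAAGT was found in 14.5%, GCCATNTT in 10.1%, TGACGTCA in 2.90% and TCTCGCGA in 1.45%. CACGTG and TATAAA were each found in 7.25% of that set. CCGGAAGT and the low share of TATAAA were thus not particular to the cytosolic family. All these are matches of letters and do not show that a factor was bound.

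The arrays gave strong signals for these genes. All values are log2 of the background-subtracted signal minus the 75th percentile of the same array, so a value of 6 lies 6 log2 units above that percentile, and each probe has its own brightness, so levels are not set against each other between genes. A probe counted as measured where it was well above background. That held on all 12 arrays for 82 of the 84 genes, while Rpl3l was above it on 11 arrays and Rpl39l on 5. Per array, 56.4% (liver CTR 3) to 81.8% (liver TG 3) of all probes were above background, and both of these liver arrays stood apart from the rest, which lay between 66.3% and 75.3%. The 8 hepatocyte markers tested were all called lower in esophagus, and the 10 markers of stratified epithelium and 11 of striated muscle all higher, in CTR mice and in TG mice. Of these, 7 of the 8, 5 of the 10 and 5 of the 11 were measured on all arrays of a group of the other organ. The others entered these tests only through the organ where they are high, so their calls support nothing. The Nanog probe (NM_028016) was above background on 0 of the 12 arrays, with levels of -8.01 ± 0.22 in esophagus TG, -8.17 ± 0.20 in esophagus CTR, -6.51 ± 0.78 in liver TG and -7.17 ± 0.77 in liver CTR (mean ± SD over 3 arrays). The switch of the transgene was thus not seen on these arrays, and whether this probe reaches the transgene's RNA was not tested. The 3 mice of a genotype are biological replicates per the series design.

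The first comparison asked how the ribosomal protein genes of a layered epithelial organ with striated muscle differ from those of the liver, in mice without the transgene. Most of the 84 genes differed little: the median difference, esophagus minus liver, was 0.16 on the log2 scale, beside -0.14 over all 23365 genes tested. Of the 84, 20 were called higher and 7 lower in esophagus (limma, adjusted p under 0.05), which is 23.8% and 8.33% of them, while 27.7% of all genes tested were called higher and 34.5% lower. At an unadjusted p under 0.05 the counts were 25 and 7, beside 6891 and 8503 of the 23365 genes tested. The large subunit had 14 higher and 5 lower of 51, and the small subunit 6 higher and 1 lower of 32. This split holds for the scaling used: with quantile normalization 71 of 74 called genes were higher, 95.9%, and 70 of 73 in the authors' deposited table; both scalings put the median of the 84 genes at 0.97. Bulk RNA does not tell apart fewer cells of a type and less RNA per cell. The organs' RNA was made with different kits, and the organ and its extraction cannot be told apart either.

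Rpl3l (NM_025425), the striated muscle paralog of Rpl3, had by far the largest difference. Its levels were -4.46, -4.38 and -5.63 in liver CTR 1 to 3 and 3.24, 3.64 and 3.42 in esophagus CTR 1 to 3. The organs did not overlap, and the lowest liver value, on liver CTR 3, was not above background. The difference was 8.26 (SE 0.35, limma adjusted p = 1.24e-08) and ran from 6.63 to 9.34 over 17 alternatives. No fold is given, since 2 of the 3 liver arrays measured the gene. Rpl3l entered this test only through esophagus CTR, where it is high, so its call in CTR mice supports nothing. In TG mice it was above background on every array of both organs. The 11 striated muscle markers, which include the creatine kinase Ckm at 6.10 to 6.62 in esophagus CTR and -6.13 to -4.09 in liver CTR, were all called higher with it. Only 5 of these markers were measured on all arrays of a liver group, so the calls of the others support nothing. The part of the markers in the result was not tested.

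More genes of the large subunit stood out on the higher side. Rpl14 (NM_025974), a large subunit protein found in eukaryotes, was at 0.05, -0.15 and 0.04 in liver CTR and 1.56, 1.93 and 1.54 in esophagus CTR. Every esophagus value was above every liver value by more than 1 log2 unit, a difference of 1.70 (SE 0.18, limma adjusted p = 1.32e-05). Rpl21 (NM_019647), likewise of the large subunit, was at -1.66, -1.81 and -1.56 in liver and -0.46, -0.22 and 0.01 in esophagus, again without overlap. It differed by 1.45 (SE 0.17, limma adjusted p = 3.55e-05). Rpl31 (NM_053257), which sits at the mouth of the exit tunnel, was at 0.58, 0.21 and 0.59 in liver and 1.53, 1.92 and 1.39 in esophagus and differed by 1.15 (SE 0.26, limma adjusted p = 0.00278). Its second probe differed by 1.82, in the same direction.

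Smaller differences above the test's threshold were found for Rpl4 and Rps15a, among others. Rpl4 (NM_024212), whose loop lines the tunnel, was at 3.56, 3.99 and 4.33 in liver CTR and 4.30, 5.10 and 5.05 in esophagus CTR, so that the lowest esophagus array lay just under the highest liver array; the difference was 0.86 (SE 0.25, limma adjusted p = 0.0121). Rps15a (NM_170669) was at 5.22 to 5.28 in liver and at 6.20, 6.35 and 5.41 in esophagus, with esophagus CTR 3 lowest, and differed by 0.74 (SE 0.22, limma adjusted p = 0.0139). Rpl4 lost its call without esophagus CTR 2 (adjusted p = 0.0503), and Rps15a without esophagus CTR 1 (0.0535) or CTR 2 (0.0582). Other genes called higher included Rpl32, Rpl8, Rps14, Rps3, Rps6, Rpl35, Rpl23a, Rpl13, Rplp2 and Rpl17, with differences from 0.43 to 0.65. They, and genes named further on only to spell out a count, were chosen after their values were seen. The second Rps3 probe gave -0.62, so Rps3 has no settled direction.

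On the lower side, Rps27l (NM_026467), a paralog of Rps27 and a target of p53, was at 6.95, 7.39 and 7.03 in liver CTR and 4.73, 5.12 and 4.34 in esophagus CTR. The organs were more than 1.5 log2 units apart at their nearest, and the gene fell by 2.39 (SE 0.22, limma adjusted p = 4.99e-06). Rpl36al (NM_025589), the autosomal copy of the X-linked Rpl36a, was at 5.52, 5.80 and 5.65 in liver and 4.20, 4.43 and 4.07 in esophagus, without overlap. It fell by 1.42 (SE 0.17, limma adjusted p = 4.33e-05). Rpl36a (NM_019865) itself was at 6.45, 6.46 and 6.45 in liver and 5.53, 5.86 and 5.5 in esophagus, a difference of -0.82 (SE 0.16, limma adjusted p = 0.00121), while its other probes gave -0.27 and -0.20 and the authors' deposited table put it at 0.015.

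Rpl10 (NM_052835), an X-linked protein that joins the large subunit last, was at 6.48, 6.10 and 6.10 in liver CTR and 5.20, 5.52 and 4.66 in esophagus CTR. It fell by 1.1 (SE 0.23, limma adjusted p = 0.00197) without overlap of the organs. It was not called in 5 of 18 alternatives: the 3 quantile scalings, the authors' deposited table and the spike-in scaling, with differences from -0.39 to -0.02 (limma adjusted p = 0.178 to 0.930). Rps19bp1 (NM_175109) was at 3.15, 3.01 and 2.89 in liver and 1.95, 2.12 and 2.07 in esophagus and fell by 0.97 (SE 0.14, limma adjusted p = 0.000162). Rpl24, a large subunit protein that bridges to the small subunit, was at 4.70, 4.48 and 4.76 in liver and 4.05, 4.32 and 3.39 in esophagus. It differed by -0.73 (SE 0.23, limma adjusted p = 0.0184), and by -0.46 without esophagus CTR 3 (adjusted p = 0.0589) and -0.67 without liver CTR 3 (0.0567). Rpl37 (NM_026069) differed by -0.67 (SE 0.22, limma adjusted p = 0.0231), with esophagus CTR 3 lowest at 4.29, and by -0.39 without that array (adjusted p = 0.0637). Its second probe gave 0.83, so this gene has no settled direction.

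The same comparison in the TG mice used other animals. Of 83 genes tested, 15 were called higher and 8 lower (limma, adjusted p under 0.05), beside 24.3% and 38.8% of the 23912 genes tested; the median was 0.06 over the 83 genes and -0.36 over all. Both sets of mice called 12 genes higher, among them Rpl3l, Rpl14, Rpl21, Rpl31, Rpl4 and Rps15a. Both called 6 lower, namely Rps27l, Rpl36al, Rpl10, Rps19bp1, Rpl36a and Rpl37. These 18 are 69.2% of the calls in CTR mice among the 83 genes tested in both and 78.3% of those in TG mice, and 0 genes were called in opposite directions. The matching shares over all genes were not computed, so whether this overlap is particular to the family was not tested. Over all genes 27.7% were called higher and 34.5% lower in CTR mice. Across the 83 genes the organ differences of both sets of mice correlated with a Pearson r of 0.968, and 0.897 without Rpl3l, as a description across genes that share their arrays.

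The values repeated closely. In TG mice Rpl3l was at -4.47, -4.23 and -3.50 in liver and 3.29, 3.25 and 3.57 in esophagus, a difference of 7.44 (SE 0.35, limma adjusted p = 2.89e-08). Rpl14 was at 0.17, 0.06 and 0.22 in liver and 2.11, 1.82 and 1.62 in esophagus, with the same difference of 1.70 (SE 0.18, limma adjusted p = 1.37e-05). Rps27l was at 7.18, 7.44 and 7.63 in liver and 5.21, 5.20 and 5.11 in esophagus and fell by 2.24 (SE 0.22, limma adjusted p = 8.47e-06). None of these 3 genes had overlapping organs in either set of mice.

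Rpl21 differed by 1.61 (SE 0.17, limma adjusted p = 1.72e-05), and Rpl31 by 1.28 (SE 0.26, limma adjusted p = 0.00146) in TG mice. Rpl4, at 3.44, 3.51 and 3.43 in liver TG and 4.97, 4.82 and 4.72 in esophagus TG, no longer overlapped and differed by 1.37 (SE 0.25, limma adjusted p = 0.000726). Rpl29, which was not called in CTR mice at 0.35 (SE 0.19), was at 4.45, 4.19 and 4.39 in liver TG and 5.22, 4.93 and 5.12 in esophagus TG and differed by 0.75 (SE 0.19, limma adjusted p = 0.00572). Whether an organ difference depended on the transgene is the interaction tested at the end, in which 0 genes passed.

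Among the genes lower in the esophagus of TG mice, Rpl36al differed by -1.32, Rps19bp1 by -1.02 and Rpl36a by -0.94. Rpl10 differed by -0.75 (SE 0.23, limma adjusted p = 0.0168), but by 0.087 in the authors' deposited table, and its call was lost without esophagus TG 1 (adjusted p = 0.0583) or TG 2 (0.0621). Rpl38, a large subunit protein known for its part in body patterning, was at 7.73, 7.74 and 7.72 in liver TG and 7.24, 7.01 and 7.31 in esophagus TG, a difference of -0.54 (SE 0.14, limma adjusted p = 0.00601). Rpl35a, one of the genes of the inherited anemia named Diamond-Blackfan, differed by -0.61 (SE 0.16, limma adjusted p = 0.00756) and Rpl37 by -0.58 (SE 0.22, limma adjusted p = 0.0409). The second Rpl37 probe was called in the other direction, at 0.97 (limma adjusted p = 0.0289). Rpl38, Rpl35a and Rpl37 were above 0 in quantile values and in the authors' deposited table, and Rpl37 lost its call on leaving out any of 7 arrays. Under centring on the spike-in controls all genes of this paragraph were above 0. Rpl10, Rpl35a, Rpl37, Rpl38 and Rpl36a were then called higher, the reverse of their calls here (limma adjusted p = 0.00077 to 0.0254). Rpl36al and Rps19bp1 were not called with that centring.

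**Figure D1:**
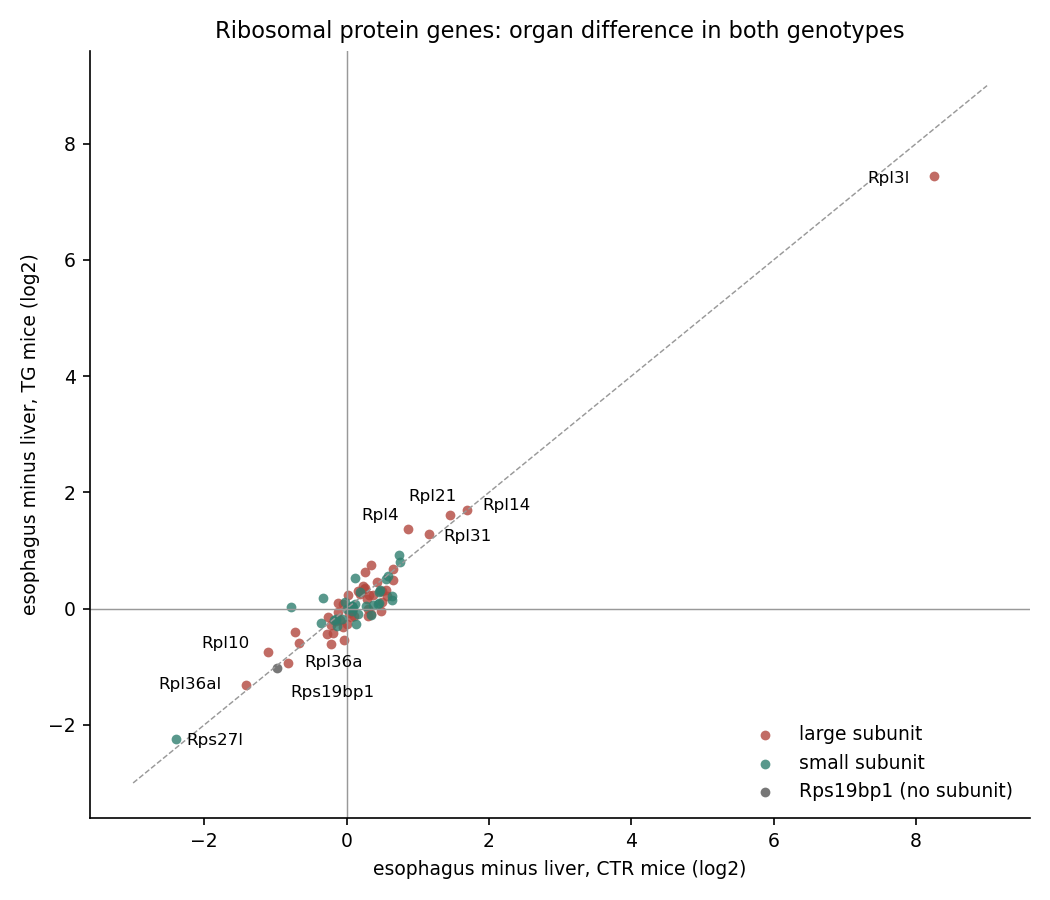
Difference between esophagus and liver (log2) in CTR mice on the x axis and in TG mice on the y axis, 1 point per gene for the 83 genes tested in both; the dashed line marks equal values. Most points lie close to 0, with Rpl3l at 8.26 and 7.44 and Rps27l at -2.39 and -2.24 at the ends; the scaling is the 75th percentile, and Rpl10 (in TG mice) and Rpl36a (in CTR mice) turn above 0 in the authors' deposited table.

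In CTR mice Rps27l passed the test between organs, as did Rpl3l, which entered it only through esophagus CTR. With the percentile scaling their partners Rps27 and Rpl3 did not pass, and the difference between partners was not tested. The size of the partners' own differences depended on the scaling. Over 7 scalings Rps27 lay 0.30 to 0.42 and Rpl3 0.09 to 0.13 above the family's median in CTR mice. In the authors' deposited table that median was 0.97, and 70 of 84 genes were called higher. Rpl3 (NM_013762), at the peptide-forming centre, was at 5.69, 5.73 and 5.96 in liver CTR and 5.96, 6.36 and 5.85 in esophagus CTR. These values overlapped, with a difference of 0.26 (SE 0.17, limma adjusted p = 0.216); in TG mice it was called at 0.64 (SE 0.17, limma adjusted p = 0.00900). Rps27 (NM_027015) was at 7.33, 6.82 and 7.0 in liver CTR and 7.41, 7.81 and 7.29 in esophagus CTR, a difference of 0.46 (SE 0.19, limma adjusted p = 0.0579), while Rps27l fell. Rpl36a and Rpl36al were both lower in esophagus, by 0.82 and 1.42, but in quantile values and in the authors' deposited table Rpl36a was not, and under the spike-in scaling in TG mice both were above 0.

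Rpl39 (NM_026055), a small protein of the tunnel wall, was at 5.99, 5.55 and 5.37 in liver CTR and 5.94, 6.27 and 5.61 in esophagus CTR and differed by 0.30 (SE 0.23, limma adjusted p = 0.274). Its paralog Rpl39l (NM_026594) was near background everywhere: it was above it on 3 arrays of esophagus CTR, at -5.07, -3.74 and -3.17, and on 0 arrays of liver CTR, at -5.75, -7.55 and -5.98. It was at least 1.99-fold higher in esophagus CTR, the bright mean against the higher of each dim array's lowest measured signal and the probe's own (limma adjusted p = 0.0114). It passed the filter on low values only through esophagus CTR, where it is high, so it had to differ and its call among the 20 supports nothing. The call was lost with dim values at a floor (limma adjusted p = 0.139) and as the mean of its probes, where the difference was 0.33 (limma adjusted p = 0.708). In TG mice it was at -5.20, -5.77 and -4.54 in esophagus and -7.36, -6.04 and -5.02 in liver and was not tested.

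Rpl22 (NM_009079), at 6.19, 5.81 and 5.69 in liver CTR and 5.62, 5.88 and 5.36 in esophagus CTR, differed by -0.27 (SE 0.19, limma adjusted p = 0.228). Its paralog Rpl22l1 (NM_026517) was at 4.50, 3.86 and 3.51 in liver CTR and 3.83, 4.42 and 2.86 in esophagus CTR and varied widely among arrays of one group. Rpl7 (NM_011291) ranged from 6.77 to 7.08 in liver CTR and 6.86 to 7.33 in esophagus CTR. Rpl7l1 (NM_025433), a relative of Rpl7, ranged from 1.40 to 1.58 and 1.09 to 1.42. By the brightest probe and with the percentile scaling neither pair passed the test between organs in either set of mice. With every probe tested on its own, the second probe of Rpl22 was called at 0.96 in CTR and 0.94 in TG mice, that of Rpl7l1 at -0.70 and -0.64, and the other Rpl7 probes in TG mice at 0.89 and 0.76. Rps4x (NM_009094), X-linked in mice, was at 7.23, 7.02 and 7.47 in liver CTR and 7.64, 7.64 and 7.76 in esophagus CTR, a difference of 0.44 (SE 0.19, limma adjusted p = 0.0629).

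**Figure D2:**
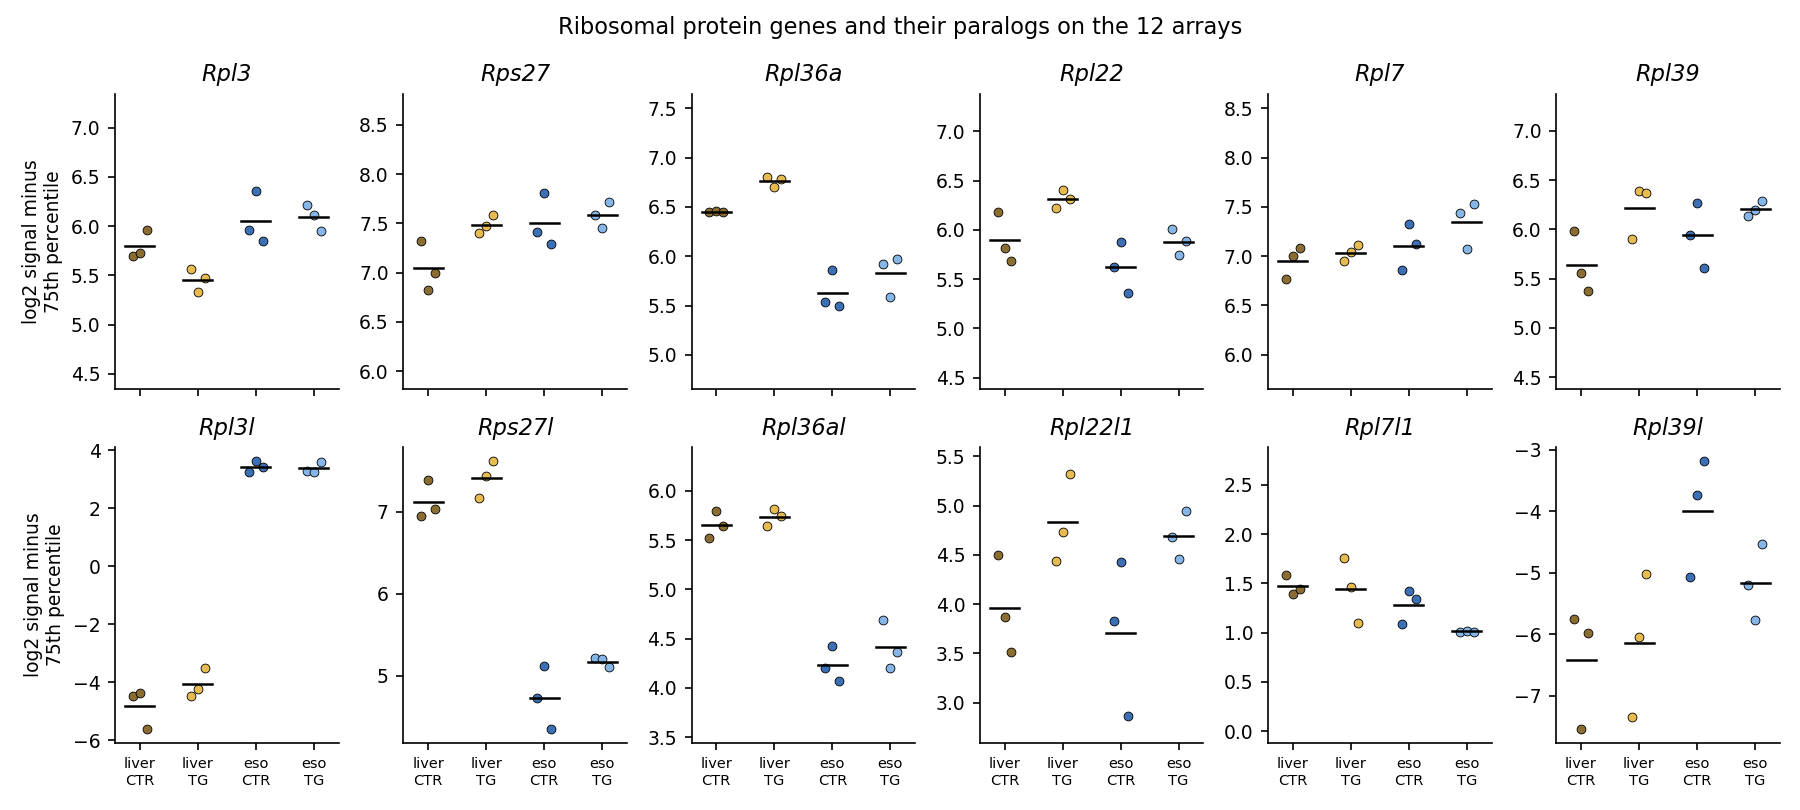
Level (log2 signal minus the array's 75th percentile) of 6 ribosomal protein genes and their paralogs in the 4 groups, with 1 point per array and a bar at the mean of 3 arrays. Rpl3l and Rps27l separate the organs in opposite directions, and Rpl3 and Rps27 overlap between organs in at least 1 set of mice.

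By place on the ribosome, the longest list was that of the exit tunnel. Of 9 genes at the tunnel or its exit, 8 had a higher mean in esophagus CTR, with a median of 0.43, and 5 were called higher, namely Rpl31, Rpl4, Rpl35, Rpl23a and Rpl17; in TG mice the counts were 6 and 3. Over all genes 27.7% were called higher in CTR mice and 24.3% in TG mice. The stalk that recruits the translation factors had 3 of 4 genes higher and 1 called. Rplp0 (NM_007475) was at 8.57, 8.36 and 8.56 in liver CTR and 8.65, 8.85 and 8.89 in esophagus CTR, a difference of 0.30 (SE 0.19, limma adjusted p = 0.197), while its second probe was called at 1.30. Rplp1 (NM_018853) was at 8.85, 8.95 and 8.63 in liver and 8.56, 8.87 and 8.83 in esophagus, so these organs overlapped. Rplp2 (NM_026020), at 7.91, 7.70 and 7.67 in liver and 8.08, 8.35 and 8.30 in esophagus, was called at 0.48 (SE 0.17, limma adjusted p = 0.0329). In TG mice the brightest probes of the 4 genes ran from -0.31 to -0.03 with this scaling, and the second Rplp0 probe was called at 1.27.

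On the small subunit, the 8 genes of the head and mRNA entry had 1 call (Rps3, whose second probe went the other way) and the 6 of the mRNA exit side had 2. Over all genes 27.7% were called higher and 34.5% lower in CTR mice, against which the counts of this paragraph are to be read. Rpsa (NM_011029), which also binds laminin at the cell surface, was at 4.50, 4.52 and 4.76 in liver CTR and 4.57, 5.05 and 4.50 in esophagus CTR and overlapped. In TG mice it was at 4.30, 4.57 and 4.43 against 5.13, 4.91 and 4.85 and was called at 0.53 (SE 0.18, limma adjusted p = 0.0275). Its 2 probes gave organ differences more than 1 apart, as did those of Rpl22, Rpl37 and Rplp0 in both sets of mice and of Rps3 in CTR mice, out of 30 genes with at least 2 tested probes. With the 75th percentile scaling, 0 calls by limma in CTR mice and 1 lower in TG mice (Rpl35a) fell among the 9 genes named in Diamond-Blackfan anemia. Rps19, the gene most often mutated in it, was at 2.30, 2.95 and 2.81 in liver CTR and 2.35, 2.43 and 0.93 in esophagus CTR, where 1 array gave most of the difference of -0.78 (SE 0.36, limma adjusted p = 0.0833). Of the 4 X-linked genes, Rpl10 and Rpl36a were called lower and Rps4x and Rpl39 were not called.

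The organ differences of the family lay closer together than those of all genes. In CTR mice 79.8% of the 84 genes lay within 0.5 of the family's own median, against 27.6% of all genes around theirs, and in TG mice 78.3% against 27.3%. For the 76 mitochondrial ribosomal protein genes, which serve the organelle's own ribosome, the share was 63.2% and 59.2%, and within 1 of the median it was 90.8% in CTR mice, beside 90.5% of the family. The interquartile range was 0.56 for the family and 2.05 for all genes in CTR mice. Over 7 scalings the share within 0.5 stayed between 73.8% and 79.8% in CTR mice, while the share over all genes ranged from 26.6% to 38.3%. The mitochondrial genes had a median of -1.04, with 63 called lower and 1 higher; in TG mice they had -0.92, with 60 lower and 2 higher. Mrpl50, for example, was at 3.60 to 3.84 in liver CTR and 2.04 to 2.25 in esophagus CTR and fell by 1.57 (SE 0.14). The median of the cytosolic genes was above that of the mitochondrial genes by 1.19 to 1.67 in CTR mice and 0.98 to 1.41 in TG mice over the 7 scalings, while the mitochondrial median itself was at 0.04 in CTR mice under the spike-in scaling.

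The position of the whole family relative to 0 depended on the scaling. Its median in CTR mice was 0.16 with the 75th percentile, 0.15 when arrays were centred on their median, 0.90 with quantile normalization within each organ, 0.97 with quantile normalization of all arrays and in the authors' deposited table, and 1.23 when arrays were centred on the spike-in controls. The median of all genes was -0.14, -0.14, 0.53, -0.04, -0.04 and 0.94 in the same order. Over these scalings calls went from 27 genes to between 15 and 77, the 15 with median centring, which hardly moved either median. Over all genes the calls were 13489 with median centring and 15639 with the spike-in scaling, which gave the 77. Relative to the family's own median, 3 genes stayed more than 0.5 higher in all 7 scalings and both sets of mice, Rpl3l and Rpl14 among them, and 6 stayed more than 0.5 lower, namely Rps27l, Rpl36al, Rpl10, Rps19bp1, Rpl36a and Rpl37. This is by the brightest probe: with the 75th percentile the other Rpl36a probes, at -0.27 and -0.20, lay within 0.5 of the family's median in CTR mice, and the second Rpl37 probe, at 0.83, above it. Over the scalings in CTR mice this relative difference ran from -2.59 to -2.51 for Rps27l, from -1.69 to -1.58 for Rpl36al, from -1.32 to -1.26 for Rpl10 and from 0.79 to 1.55 for Rpl14. For Rpl21 it ran from 0.22 to 1.30 and for Rpl31 from 0.11 to 1.00. By the plain difference, Rpl14, Rpl21, Rpl31 and Rpl32, among others, were called higher and Rps27l lower in both sets of mice, as reported and under each of 29 alternatives with 1 value per gene.

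Some slides held arrays of both organs. Slide 1 held esophagus CTR 1 with liver CTR 2, and slide 2 esophagus CTR 3 with liver CTR 1. Within them the family medians were 0.18 and -0.03, with 57 and 39 of the 84 genes higher in esophagus. In TG mice the medians within slides 3 and 5 were 0.32 and 0.08, with 64 and 47 of 83 genes higher.

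**Figure D3:**
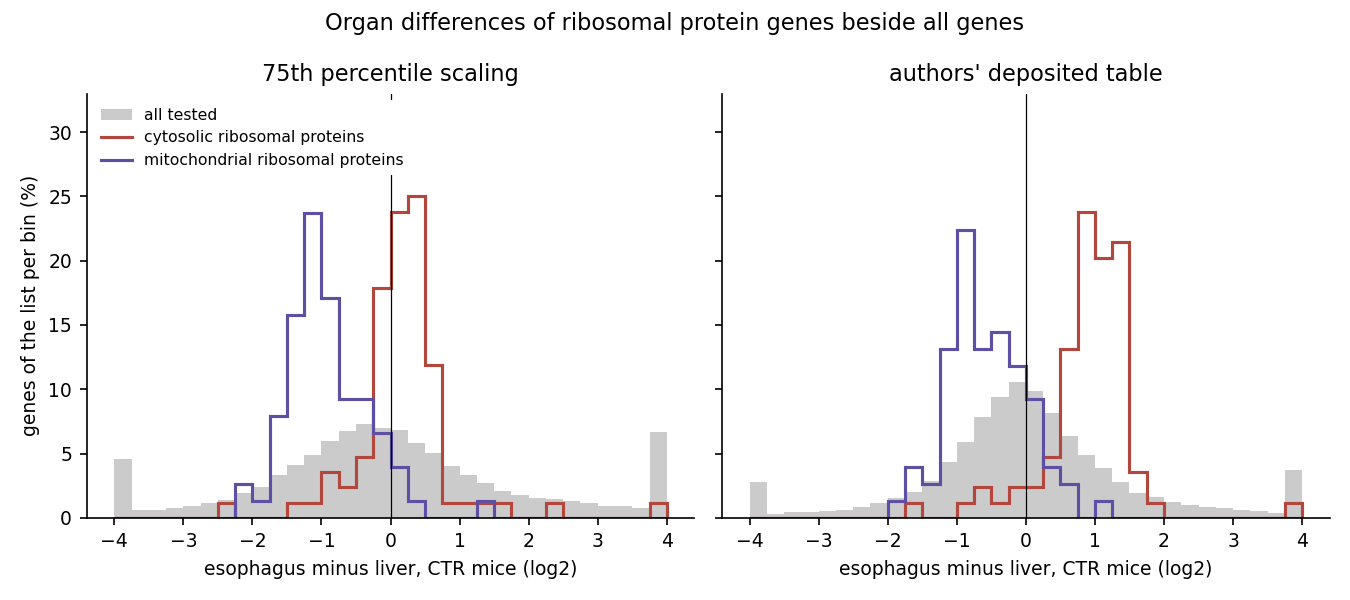
Share of genes (%) per bin of the difference between esophagus and liver in CTR mice (log2), for all tested genes, the cytosolic and the mitochondrial ribosomal protein genes, under the 75th percentile scaling (left) and in the authors' deposited table (right); the end bins hold all values beyond 4. The cytosolic genes form a narrow peak that moves from a median of 0.16 on the left to 0.97 on the right and stays above the mitochondrial genes in both.

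The next comparison asked what the Nanog transgene did to these genes in the liver. No ribosomal protein gene passed the test: 0 of 83 were called by limma, where 0% of all 21247 genes tested were called. At an unadjusted p under 0.05 there were 12 higher and 0 lower, beside 1181 higher and 443 lower over all 21247 genes. With this scaling 74 of 83 had a higher mean in TG, with a median of 0.24 beside 0.13 over all genes. In 37 genes all 3 TG arrays were above all 3 CTR arrays, and in 2, Rpl3 and Rpl4, all were below, beside 8.42% and 2.87% of all genes. This direction depended on the scaling: 70 of 83 were higher in the authors' deposited table. There 9 genes were apart on the higher side, beside 4.86% of all genes, and 2 on the lower, beside 3.58%. When arrays were centred on their median, 32 of 83 were higher. With that centring 0 were apart on the higher side, beside 1.66% of all genes, and 4 on the lower, beside 5.67%. When arrays were centred on the spike-in controls, 8 of 83 were higher. With these controls 0 were apart on the higher side, beside 0.918% of all genes, and 11 on the lower, beside 17.6%.

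Rpl38 (NM_001048057) had the smallest p. It was at 7.35, 7.32 and 7.20 in liver CTR and 7.73, 7.74 and 7.72 in liver TG, with no overlap, and differed by 0.44 (SE 0.14, limma adjusted p = 0.650). Rpl35a (NM_021338) was at 5.82, 5.67 and 5.51 in CTR and 5.95, 6.23 and 6.25 in TG, a difference of 0.48 (SE 0.16). Rps12 (NM_011295), of the small subunit head, was at 7.88, 7.98 and 7.85 against 8.21, 8.50 and 8.48, a difference of 0.49 (SE 0.17). All 3 genes were separate by group but not called, and Rpl38 was at -0.02 under the spike-in scaling.

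The genes on the other side were Rpl4, Rpl3 and Rpl21. Rpl4 was at 3.56, 3.99 and 4.33 in CTR and 3.44, 3.51 and 3.43 in TG and differed by -0.50 (SE 0.25, limma adjusted p = 0.657). Rpl3 was at 5.69, 5.73 and 5.96 against 5.56, 5.34 and 5.47 and differed by -0.34 (SE 0.17). Rpl21 was at -1.66, -1.81 and -1.56 against -2.10, -1.95 and -1.68, so its groups overlapped, and differed by -0.24 (SE 0.17). All 3 had negative differences under every alternative run. Rpl22l1, a member with wide spread, had a larger difference of 0.87 (SE 0.40) that did not pass either. Rpl3l entered this test only through the TG arrays, where it is higher, and its difference is not given.

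The family's level on each array can be set beside that of all genes. Against the CTR mean, the family's median was 0.02, -0.07 and 0.01 on liver CTR 1 to 3 and 0.12, 0.27 and 0.29 on liver TG 1 to 3, and the median of all genes on the TG arrays was 0.06, 0.12 and 0.22. Liver TG 3 had the most probes above background (81.8%) and liver CTR 3 the fewest (56.4%). Without either of these arrays the family's median was 0.20, beside 0.04 over all genes, with 77 of 83 higher. A fixed slide term gave 0.13, the same as over all genes, with 57 of 83 higher, and within slide 1, which held liver TG 3 and CTR 2, it was 0.34. The striated muscle markers, 4 of 5 tested of which were higher in TG liver, were 1.55 above the CTR mean on liver TG 3 and 0.15 to 0.27 on TG 1 and 2, with CTR arrays from -0.48 to 0.56. The 6 fibroblast markers were all higher in TG, at 0.39 to 0.57 on TG arrays and -0.17 to 0.18 on CTR arrays, without overlap. Endothelial markers were lower in 5 of 6, at -1.03 to 0.05 on TG arrays and -0.18 to 0.16 on CTR arrays. The marker values are given with the 75th percentile scaling only. Centring on the spike-in controls moved the median of all genes for liver TG minus CTR from 0.13 to -0.33. The part of these markers in the result was not tested.

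**Figure D4:**
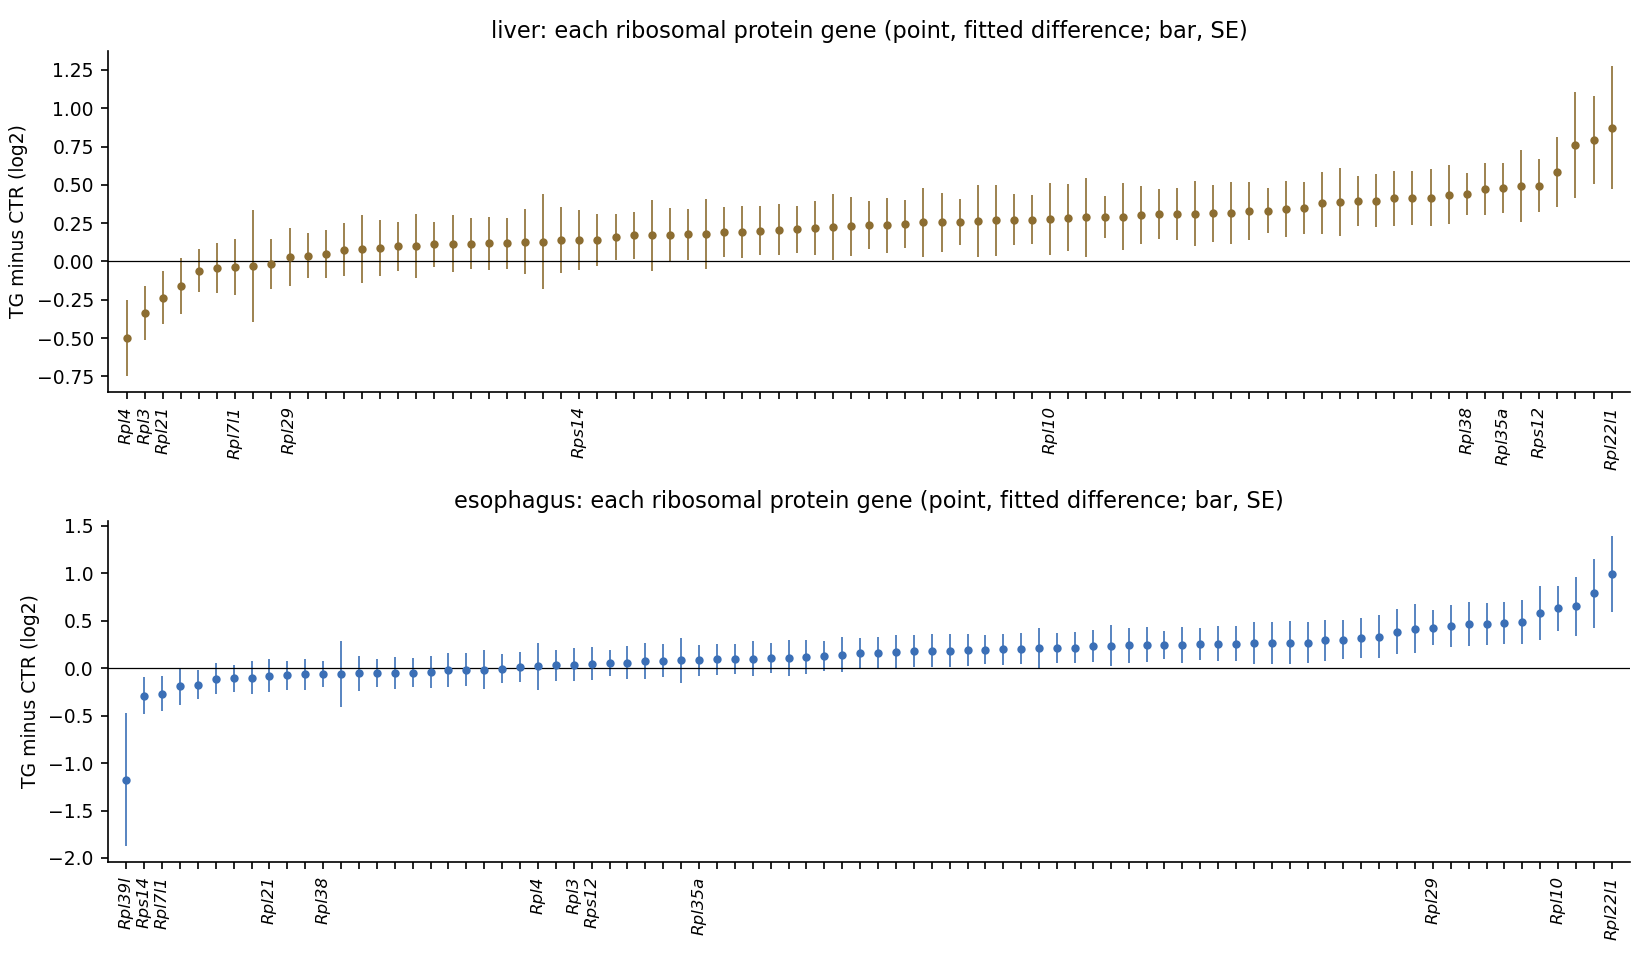
Difference TG minus CTR (log2, point) with its standard error (bar) for each ribosomal protein gene in liver and in esophagus, ordered by size within the organ, with names under some of the genes given in the text. In liver 74 of 83 genes lie above 0 under the 75th percentile scaling and 8 of 83 under the spike-in scaling; in esophagus 62 of 84 lie above 0, no gene passed the test in either organ, and the lowest esophagus point, Rpl39l, lies near background.

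In the esophagus no ribosomal protein gene passed the test for the transgene either: 0 of 84 genes were called by limma, where 0% of 23208 genes were. At an unadjusted p under 0.05 there were 3 higher and 0 lower, beside 419 higher and 475 lower over all 23208 genes. A higher mean in TG was found for 62 of 84, with a median of 0.16 beside -0.00 over all genes, and 56 to 66 of 84 were higher over 7 scalings. All TG arrays were above all CTR arrays for 6 genes, namely Rpl10, Rpl22l1, Rpl29, Rpl30, Rpl37 and Rps19, and below them for Rpl7l1, beside 6.32% and 6.13% of all genes. The count on the higher side depended on the scaling: 24 genes were apart under the spike-in scaling, beside 5.49% of all genes, 13 in quantile values, beside 7.17%, and 10 in the authors' deposited table, beside 5.62%.

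Rpl10 was at 5.20, 5.52 and 4.66 in esophagus CTR and 5.62, 5.59 and 6.06 in esophagus TG and differed by 0.63 (SE 0.23, limma adjusted p = 1.00). Rpl22l1 was at 3.83, 4.42 and 2.86 against 4.68, 4.46 and 4.94 and differed by 0.99 (SE 0.40). Rpl29 was at 4.78, 4.91 and 4.29 against 5.22, 4.93 and 5.12 and differed by 0.43 (SE 0.19). In all 3 genes esophagus CTR 3 was the lowest array. On the other side, Rps14 differed by -0.29 (SE 0.19) and Rpl7l1 by -0.27 (SE 0.18). Rpl39l, near background, entered this test only through the CTR arrays, where it is higher, and its difference is not given. With this scaling the 4 stalk genes ran from -0.19 to -0.02.

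Esophagus CTR 3 carried the lowest value of the organ for 50 of the 84 genes. The family's median against the CTR mean was -0.04, 0.23 and -0.19 on esophagus CTR 1 to 3 and 0.27, 0.03 and 0.16 on TG 1 to 3, so the groups overlapped. Without CTR 3 the median difference was 0.07, with 57 of 84 higher, and without CTR 2 it was 0.28, with 68 higher; within slide 3, which held TG 1 and CTR 2, it was 0.03. Markers of other tissues differed between these groups of arrays. The 8 heart markers were -2.16 to -1.89 from the CTR mean on TG arrays and -1.35 to 1.40 on CTR arrays, with 6 of 8 lower in TG. The 4 tested airway and gland markers, all lower in TG, were at -5.81 to -1.41 and -1.20 to 2.01, and the 6 adipocyte markers, also all lower, at -2.75 to -0.05 and -0.45 to 0.64. The 7 tested hepatocyte markers were all lower in TG, at -1.31 to -1.11 on TG arrays and -0.55 to 0.34 on CTR arrays, without overlap. Leukocyte markers were lower in 7 of 8, at -1.16 to -0.10 and -0.13 to 0.14. Some of these markers lay at background on part of the 12 arrays, as Foxj1 and Lep did. Their part in the result was not tested.

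**Figure D5:**
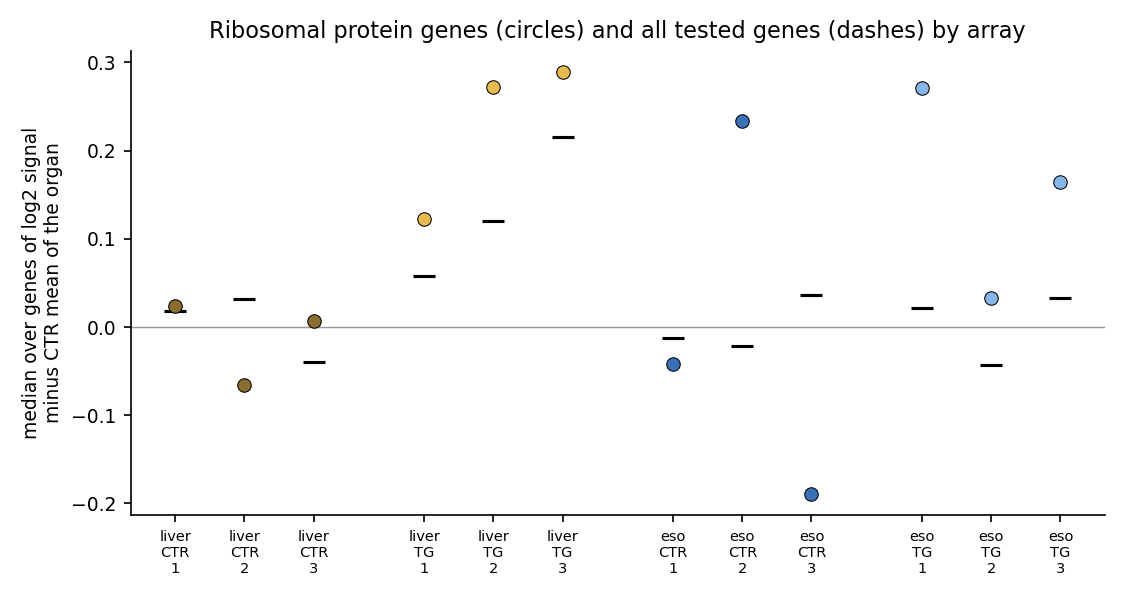
Median over ribosomal protein genes (circles) and over all tested genes (dashes) of the level on each array minus the CTR mean of that organ (log2, 75th percentile scaling), for the 12 arrays. The liver TG arrays lie at 0.12 to 0.29, with all genes at 0.06 to 0.22, and esophagus CTR 3 is lowest at -0.19.

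Whether the transgene acted differently on these genes in the organs was tested as an interaction. Of 84 genes 0 were called by limma, where 0% of 24438 genes were. At an unadjusted p under 0.05 there were 0 higher and 1 lower, beside 339 higher and 877 lower over all 24438 genes. The median of the difference, esophagus minus liver, was -0.08 beside -0.15 over all genes. The smallest p values belonged on the lower side to Rpl38 at -0.50, Rplp2 at -0.52 and Rps3 at -0.49 (limma adjusted p = 0.943 for Rpl38), and on the higher side to Rps19 at 0.82, Rpsa at 0.42 and Rpl3 at 0.37. Rps3, at the mRNA entry, was at 6.91, 6.80 and 7.03 in liver CTR and 7.36, 7.42 and 7.37 in liver TG, and at 7.35, 7.79 and 7.52 in esophagus CTR and 7.76, 7.30 and 7.55 in esophagus TG. By this probe Rps3 was separate by genotype in liver and overlapped in esophagus. The second Rps3 probe gave 0.23 for the interaction and 0.50 for esophagus TG minus CTR, so the direction depended on the probe.

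The spread among mice of one group was small in the liver. The residual SD about the group means had a median of 0.13 over the family and 0.33 over all genes in liver, and 0.21 against 0.26 in esophagus. Rpl36a had the smallest liver value at 0.037, followed by Rpl32 at 0.043 and Rpl27 at 0.044. Rpl3l at 0.61, Rpl22l1 at 0.48 and Rpl31 at 0.38 had the largest. In esophagus Rps29, with values from 6.89 to 7.0 on all 6 arrays, had the smallest at 0.051, Rpl23a had 0.083 and Rps19bp1 0.089. Rpl39l at 0.82, Rps19 at 0.60 and Rpl22l1 at 0.58 had the largest, the first near background and the others with esophagus CTR 3 far below the rest.

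The other genes of the translation pathway changed with organ in both directions. Of 8 elongation factors, which move the ribosome along, 2 were called higher and 1 lower in esophagus CTR; over all genes these shares were 27.7% and 34.5%, against which the counts of the lists are to be read. Eef1a2, the form of muscle and nerve, was at 2.04 to 2.46 in esophagus CTR and -6.17 to -4.87 in liver CTR; it was above background on 8 of the 12 arrays, so its fold is not given. Eef1a2 entered this test only through esophagus, where it is high, so its call among the 2 supports nothing. Its partner form Eef1a1 differed by -0.56 (SE 0.15) and Eef1g by 0.59 (SE 0.16). Of 30 initiation factors, which load the ribosome on the messenger RNA, 4 were higher and 3 lower, among them Eif5 at -2.26, Eif4g3 at 0.79 and Eif3k at 0.58.

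Of 48 tested ribosome biogenesis genes, which build the subunits, 19 were called higher and 7 lower, with a median of 0.35. They include Tcof1 at 1.17, Gnl3l at 1.41 and Nop10 at -1.98. Of 33 mTOR, S6 kinase and Myc regulators 16 were higher and 9 lower, with the kinases Rps6ka4 at 2.06, Rps6ka3 at 2.26 and Rps6ka5 at 3.48. Of the 33, 30 were measured on all arrays of a liver group, and any call of the others supports nothing. Ribosomal proteins that the naming rule does not reach include Fau at 0.23 and Rack1 at 0.27, which did not pass the test. For the transgene 0 genes of these lists were called by limma in either organ. In liver the smallest p belonged to Myc, a driver of ribosome production. It was at -0.46, 1.58 and -0.04 in CTR and -0.98, -1.42 and -1.41 in TG, a difference of -1.63 (SE 0.42, limma adjusted p = 0.650), with no overlap and with liver CTR 2 highest. Eef2 at -0.74 and Polr1e, of the ribosomal RNA polymerase, at -0.62 were the next named, and in esophagus Eif5 at 0.90 and Eif4ebp2 at 0.53.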

How the data were processed

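Per the labels' protocols, RNA had integrity numbers of 7.3 to 9.5 and Cy3 labelling started from 1 µg. Each array's deposited file holds spot intensity values on a linear scale, already background-subtracted and not scaled between arrays, from Agilent Feature Extraction 10.7.1.1 (design 14868) per the file headers. The authors also deposited log2 values of the same arrays, which by their values are quantile-normalized; limma is named per the submitters' processing notes, and its background handling, not given in the sources used here, is unknown. All columns of that table correlated above 0.999 with quantile values, after normexp, of the same array.

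Control spots and 1311 spots marked as outliers were left out, no spot was saturated, and spots of a probe were averaged. Accessions matched to RefSeq (GRCm38.p6) named 23374 probes as 16535 genes; 17800 probes stayed unnamed. The array was annotated on an older build, so its coordinates were not used. The brightest probe stood for a gene. Tested genes had a probe well above background on every array of 1 or more of the compared groups. All arrays entered a single limma model of 4 groups without a block (lmFit, eBayes; limma 3.58.1, R 4.3.3; 8 residual degrees of freedom). The 5 contrasts were tested two-sided, and p-values were adjusted by Benjamini-Hochberg over all genes tested in a contrast and called at 0.05. The number of arrays limits the precision.

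The genes, the lists by role, pathway and marker, and the naming rule were chosen with earlier results of these data known. By that rule the paralog pairs, the stalk genes and Rpsa are always named; each contrast adds the 8 largest called differences per direction, or the 3 smallest p where none was called; each organ adds the 3 largest and smallest spreads; each pathway list adds up to 3 smallest p. Some results are not reported here. The same-numbered liver and esophagus arrays come from 1 mouse by the labels; the deviations of such arrays correlated at -0.087 to 0.15 over all genes and 0.071 to 0.28 over the family. Alternatives were other scalings, background correction, probe filters, blocks, array weights and leaving out arrays; leaving out liver TG 3 and CTR 3 together was added after seeing the data. The normexp alternative used median spot signals. The model was also tested on simulated data. Tables were made with data.table (1.17.8), jsonlite (2.0.0), Python 3.11.15 and pandas 2.3.3, and figures with matplotlib 3.10.9.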

Additional observations from a re-analysis of the deposited data

How the results depend on the processing

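No transgene contrast gave a called ribosomal protein gene under any of 17 alternatives, the 12 fits without 1 array or the fit without liver TG 3 and CTR 3. The median of the genes for the transgene in liver moved from 0.24 to -0.038 with median centring, -0.22 with spike-in centring and 0.13 with the slide as a fixed block, and that of the difference between organs from -0.08 to 0.24 and 0.34 with the 2 centrings. In CTR mice the organ calls and median went from 27 and 0.16 to 74 and 0.97 (quantile), 73 and 0.90 (quantile within organ), 77 and 1.23 (spike-in), 73 and 0.97 (normexp), 73 and 0.97 (authors' deposited table), 15 calls (median centring) and 41 probes called (every probe on its own). In TG mice they went from 23 and 0.06 to 71 and 0.90, 68 and 0.82, 81 and 1.56, 72 and 0.91, and 72 and 0.91 in that order, to a median of 0.37 (median centring), to 15 calls (slide as a fixed block) and to 39 probes called. Over all genes the calls in CTR mice were 14706, 15089, 15639, 14124 and 14118 in the same order of scalings. They were 13489 with median centring and 17740 probes with every probe on its own. In TG mice they were 14854, 15199, 16528, 14168 and 14133, then 13750 with the slide as a fixed block and 18363 probes. The cause of these shifts was not tested. The replicate block, with the mouse as a fixed term between organs, gave 25 calls in CTR mice and 22 in TG mice and changed no call for the transgene, where equal numbers are different mice.

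Genes that turned from lower to above 0 in CTR mice were Rpl36a (0.0043 quantile, 0.26 spike-in, 0.012 normexp, 0.015 authors' table), Rpl37 (0.052 quantile, 0.052 within organ, 0.41 spike-in, 0.035 normexp, 0.031 authors' table, 0.082 as the mean of its probes), Rps19bp1 (0.11 spike-in) and Rpl24 (0.35 spike-in). In TG mice they were Rpl10 (0.062, 0.75, 0.080 and 0.087 for quantile, spike-in, normexp and authors' table), Rpl35a (0.18, 0.13 within organ, 0.89, 0.17, 0.17), Rpl37 (0.22, 0.18 within organ, 0.92, 0.19, 0.19, and 0.19 as the mean of its probes), Rpl38 (0.28, 0.18 within organ, 0.96, 0.25, 0.24), and under the spike-in scaling Rpl36al (0.18), Rps19bp1 (0.48) and Rpl36a (0.56). Under the spike-in scaling in TG mice Rpl10, Rpl35a, Rpl37, Rpl38 and Rpl36a were called higher, the reverse of their calls as reported. Named genes otherwise kept their direction and call in 407 of 448 values in CTR and 431 of 479 in TG mice, and lost the call in 29 and 25. Without 1 array the medians ran from 0.07 to 0.28 (esophagus transgene), 0.20 to 0.29 (liver transgene), -0.19 to 0.03 (difference), 0.04 to 0.26 (organ, CTR) and 0.02 to 0.13 (organ, TG), and the organ calls from 22 to 29 and 16 to 24. Signal over background limits Rpl39l in both organs and Rpl3l in liver.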
